A study of Mus musculus with 6 samples.

Results

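The cytotoxic effector genes of killer lymphocytes were examined in whole MCA205 tumors: the granzymes *Gzma*, *Gzmb*, *Gzmc*, *Gzmd*, *Gzme*, *Gzmf*, *Gzmg* and *Gzmk*, perforin (*Prf1*) and Fas ligand (*Fasl*). These 10 genes were chosen by name, all 10 were found, and all 10 had the mean of at least 10 normalized counts (reads scaled by a size factor for each tumor) that was required for testing. *Gzmk* reached it only through the treated tumors. They stand among 13963 genes tested and 54309 identifiers in the table. All 10 had a higher mean in FF-10101–treated tumors, with log2 fold changes between 0.65 (*Fasl*) and 2.51 (*Gzmg*), and none passed an adjusted p of 0.05 across all genes with all 6 tumors in the test. The Control group was not uniform: 1 of its 3 tumors held effector transcripts at levels close to those of treated tumors.

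MCA205 is a mouse fibrosarcoma line. Tumor cells were injected under the skin of the right flank of C57BL/6J mice (female, 7 weeks old) on day 0, and each tumor collected on day 8 gave 1 RNA library. The Control group (n = 3 tumors) drank milliQ water, and the FF-10101 group (n = 3 tumors) drank FF-10101, a kinase inhibitor used here against CSF1R, the receptor on which macrophages depend, at 0.1 mg/mL from day 1 to day 8. The series describes the 3 tumors of a group as biological replicates, and the purpose of the comparison was to learn how tumors change when they regress under the drug.

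Libraries held 9143806 to 9643535 reads in Control tumors and 9277019 to 13258258 in FF-10101–treated tumors, and 3 reads, the smallest number taken as detected here, equal 2.29 to 3.38 normalized counts. The mesenchymal genes *Vim* (28120 to 36521 normalized counts over the 6 tumors) and *Sparc* (20996 to 53328) were abundant and epithelial *Epcam* (1.11 to 15.2) was low, while epithelial *Cdh1* ran from 98.7 to 176. *Ptprc*, which encodes the pan-leukocyte antigen CD45, ran from 1175 to 3237. Because whole tumors were measured, a change in the number of lymphocytes and a change in the RNA per lymphocyte cannot be told apart.

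Cytotoxic T cells and NK cells store granzymes and perforin in granules and release them at the contact with a target cell. Perforin forms pores in the target membrane, granzymes enter through them and cleave proteins inside, and Fas ligand on the killer cell surface engages the death receptor Fas. Granzyme B cleaves after aspartate and activates caspases and Bid, whereas granzymes A and K are tryptases that cleave after basic residues. Mice carry, beside *Gzmb*, the cluster *Gzmc* to *Gzmg*, which humans lack and which is transcribed in strongly activated lymphocytes.

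The granzyme genes lie in 2 groups in the genome, *Gzma* and *Gzmk* on chromosome 13 and *Gzmb* to *Gzmg* on chromosome 14, while *Prf1* is on chromosome 10 and *Fasl* on chromosome 1. The 150 bases before the start of 8 of these genes are shown because they hold the matches described next and because *Gzmc* to *Gzmg* resemble each other there. *Gzmk* and *Fasl* are left out because none of the letters marked were found in their 150 bases. Sequences are from RefSeq (GRCm38.p6), in the direction of the gene, at chr14:56262335-56262484 (minus strand) for *Gzmb*, chr14:56234658-56234807 (minus) for *Gzmc*, chr14:56132594-56132743 (minus) for *Gzmd*, chr14:56120626-56120775 (minus) for *Gzme*, chr14:56211408-56211557 (minus) for *Gzmf*, chr14:56159580-56159729 (minus) for *Gzmg*, chr13:113100982-113101131 (minus) for *Gzma* and chr10:61297686-61297835 (plus) for *Prf1*. Capitals mark matches, on either strand, to the letters TGTGGT (bound by RUNX factors), TGANTCA (AP-1), AGGTGT (T-box factors) or TGACGT (CREB and ATF).
Gzmb: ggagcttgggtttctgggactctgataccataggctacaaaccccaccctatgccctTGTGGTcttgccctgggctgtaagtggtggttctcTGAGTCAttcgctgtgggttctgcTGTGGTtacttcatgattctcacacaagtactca
Gzmc: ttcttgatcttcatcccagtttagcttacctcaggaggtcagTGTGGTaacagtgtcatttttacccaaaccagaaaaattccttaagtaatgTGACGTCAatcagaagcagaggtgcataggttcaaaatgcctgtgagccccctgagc
Gzmd: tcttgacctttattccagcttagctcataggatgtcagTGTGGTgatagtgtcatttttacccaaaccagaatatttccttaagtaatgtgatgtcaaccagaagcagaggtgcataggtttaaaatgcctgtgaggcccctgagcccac
Gzme: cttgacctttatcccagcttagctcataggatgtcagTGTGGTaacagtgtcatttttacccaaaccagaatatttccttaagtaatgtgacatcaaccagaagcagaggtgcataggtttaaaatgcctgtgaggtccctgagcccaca
Gzmf: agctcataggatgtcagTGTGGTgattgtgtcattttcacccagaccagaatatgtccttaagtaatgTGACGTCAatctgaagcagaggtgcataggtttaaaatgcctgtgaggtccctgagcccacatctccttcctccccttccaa
Gzmg: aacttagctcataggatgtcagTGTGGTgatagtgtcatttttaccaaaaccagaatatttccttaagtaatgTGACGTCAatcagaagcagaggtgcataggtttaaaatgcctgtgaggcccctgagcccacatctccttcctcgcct
Gzma: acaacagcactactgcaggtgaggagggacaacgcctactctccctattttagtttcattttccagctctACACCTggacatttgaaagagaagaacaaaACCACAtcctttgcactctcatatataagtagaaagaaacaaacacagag
Prf1: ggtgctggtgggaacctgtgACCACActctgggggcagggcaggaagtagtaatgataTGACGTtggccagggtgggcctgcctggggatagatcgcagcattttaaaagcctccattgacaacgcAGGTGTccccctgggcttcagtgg

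The RUNX letters were in the 250 bases before the start of 8 of the 10 genes (all but *Gzmk* and *Fasl*) and of 14% of 32851 RefSeq promoter windows of the same length. The CREB/ATF letters were in 4 (*Gzmc*, *Gzmf*, *Gzmg* and *Prf1*) against 6.47% of windows, the T-box letters in 3 (*Gzma*, *Gzmk* and *Prf1*) against 11.8%, and the AP-1 letters in 1 (*Gzmb*) against 6.75%. The STAT letters TTCNNNGAA were in none, against 7.02%. In *Gzmc*, *Gzmf* and *Gzmg* the CREB/ATF letters overlap their own reverse complement, so that both strands match at 1 place. The matches in *Gzmc* to *Gzmg* are not independent of each other, since upstream identity reached 94.8% between *Gzmd* and *Gzme* and was 70.2% to 80.9% between *Gzmc* and the other 4. A match is a description of letters, and nothing in these tumors measured binding.

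In coding sequence *Gzmd* and *Gzme* were 93.3% identical, *Gzme* and *Gzmg* 89.6%, *Gzmb* and *Gzmc* 76.3%, and *Gzma* and *Gzmk* 52%. Of all stretches of 31 bases in the transcript, the share found in no other gene was 100% for *Gzma*, *Gzmk* and *Fasl*, 99.6% for *Prf1*, 98.6% for *Gzmb* and 85.2% for *Gzmc*. It was 66.2% for *Gzmg*, 65.1% for *Gzmf*, 61.8% for *Gzmd* and 57.9% for *Gzme*. The split of reads among *Gzmd*, *Gzme*, *Gzmf* and *Gzmg* was therefore estimated by the quantification and is uncertain, and their sum is given beside the single values. The sum does not cover every shared stretch, since *Gzmc* shares 8.22% of its stretches with *Gzme* and *Gzmf* 13.9% with *Gm4022*, a predicted gene to which 0 reads were assigned in every tumor.

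*Gzma*, the effector transcript with the highest mean level per length in both groups, had 1422, 759 and 270 normalized counts in Control tumors 1, 2 and 3 and 1404, 2436 and 2567 in FF-10101 tumors 1, 2 and 3. Treated tumors 2 and 3 lay above every Control tumor, and treated tumor 1 lay just below Control tumor 1. The log2 fold change was 1.64 (SE 0.55, 95% interval 0.37 to 2.91) with an adjusted p of 0.245 in limma.

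*Gzmk*, the neighbour of *Gzma*, known from effector memory CD8+ T cells, was close to the limit of detection, with 12, 5 and 1 reads in Control tumors and 17, 14 and 30 in treated tumors (1.11 to 13.5 against 13.0 to 26.7 normalized counts). The groups overlapped narrowly, with Control tumor 1 above treated tumor 1 by less than 1 normalized count. Its log2 fold change of 1.66 (SE 0.78, adjusted p = 0.333, limma) rests on these few reads. With a mean of 6.68 in Control and 18.3 in treated tumors, it met the minimum of 10 only through the treated tumors.

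*Gzmb*, the main caspase-activating granzyme, had 1144, 476 and 366 normalized counts in Control tumors and 891, 1156 and 1524 in treated tumors. Control tumor 1 lay within a few percent of treated tumor 2, while Control tumors 2 and 3 lay below every treated tumor. The log2 fold change was 0.99 (SE 0.41, adjusted p = 0.293, limma), and its 95% interval of 0.050 to 1.93 ran from almost no difference to a large one.

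*Gzmc*, the nearest relative of *Gzmb*, had 1193, 523 and 316 normalized counts in Control tumors and 1140, 1331 and 1994 in treated tumors. The pattern over tumors was that of *Gzma*, with treated tumors 2 and 3 above every Control tumor. The log2 fold change was 1.31 (SE 0.45, adjusted p = 0.250, limma).

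The remaining 4 granzymes of the chromosome 14 cluster had lower levels, and *Gzme*, *Gzmf* and *Gzmg* had the largest fold changes of the 10 genes in the main fit. This order depended on the processing. On the deposited log2 values *Gzma* (1.56) was above *Gzmg* (1.54) and *Gzme* (1.45). With sample weights in limma *Gzma* (1.75) was above *Gzmg* (1.69). *Gzmd* had 451, 165 and 76.5 normalized counts in Control tumors and 217, 485 and 1022 in treated tumors. *Gzme* had 140, 66.3 and 13.3 in Control tumors and 108, 228 and 408 in treated tumors. In both genes treated tumor 1 was below Control tumor 1, and treated tumor 3 was the highest of all. *Gzmf* had 165, 68.5 and 12.2 normalized counts in Control tumors and 160, 204 and 684 in treated tumors. *Gzmg* had 59.7, 42.4 and 4.44 in Control tumors, the last from 4 reads, and 55.0, 107 and 433 in treated tumors. Treated tumor 3 alone held more *Gzmf* and more *Gzmg* than the other 5 tumors together. The log2 fold changes were 1.41 for *Gzmd* (SE 0.71), 2.08 for *Gzme* (SE 0.82), 2.40 for *Gzmf* (SE 0.91) and 2.51 for *Gzmg* (SE 1.02), with adjusted p between 0.273 and 0.360 (limma). Their sum, which does not depend on how reads were split among these 4, was 816, 342 and 106 normalized counts in Control tumors and 541, 1025 and 2547 in treated tumors. That is a difference of 1.85 on the log2 scale with all tumors, 1.26 without treated tumor 3, 1.08 without Control tumor 3 and 2.55 without Control tumor 1. The sum over all 8 granzymes was 4588, 2105 and 1059 in Control tumors and 3989, 5963 and 8658 in treated tumors, a log2 difference of 1.44 with all tumors, 0.93 without Control tumor 3 and 1.98 without Control tumor 1. With *Gzmc* added to *Gzmd* to *Gzmg* the sum was 2009, 865 and 423 in Control tumors and 1681, 2356 and 4540 in treated tumors, a difference of 1.54 with all tumors and 0.99 without Control tumor 3.

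*Prf1*, the pore-forming partner of all granzymes, had 704, 201 and 105 normalized counts in Control tumors and 482, 592 and 778 in treated tumors. Control tumor 1 was above treated tumors 1 and 2. The log2 fold change was 1.29 (SE 0.60, 95% interval −0.10 to 2.69, adjusted p = 0.333, limma).

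*Fasl*, which kills without granules, had 88.9, 43.5 and 31.1 normalized counts in Control tumors and 63.4, 74.9 and 99.6 in treated tumors. It had the smallest fold change of the 10 genes (0.65 on the log2 scale, SE 0.41, 95% interval −0.30 to 1.59, adjusted p = 0.457, limma), and here too only treated tumor 3 was above Control tumor 1.

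**Figure D1:**
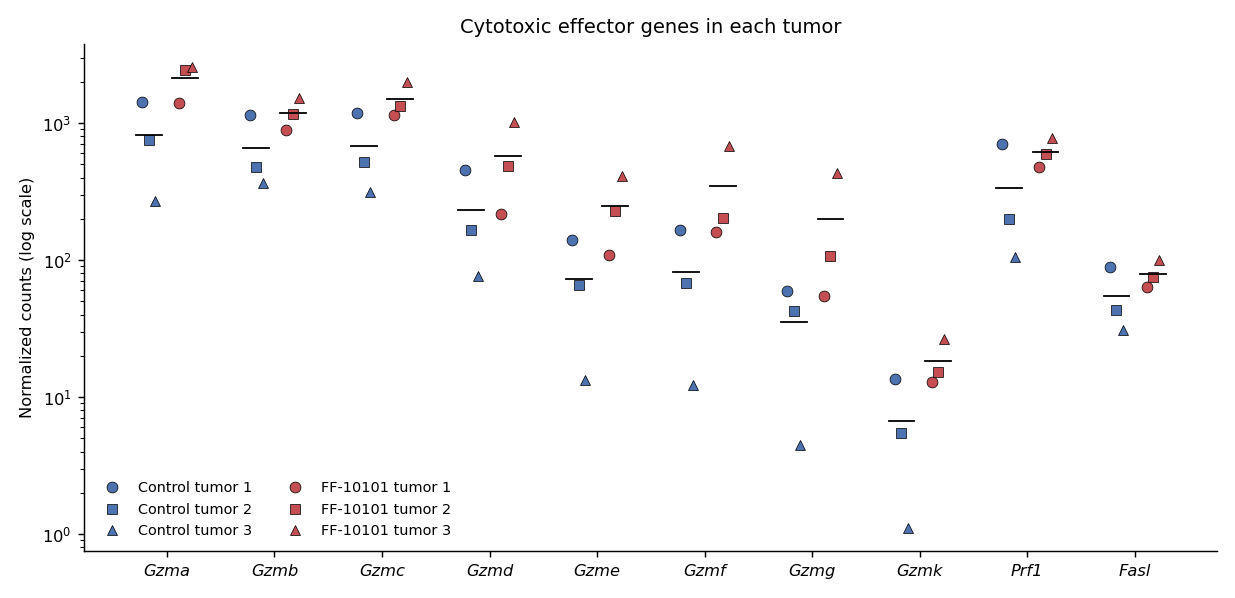
Normalized counts of the 10 effector genes in each tumor, on a log axis. Blue symbols are Control tumors, red symbols are FF-10101–treated tumors, symbol shape gives the tumor number, and bars are group means (n = 3). In all 10 genes Control tumor 3 is the lowest of all and treated tumor 3 the highest, and Control tumor 1 lies above treated tumor 1.

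The order of the tumors was nearly the same in every gene. Control tumor 1 was the highest Control tumor in 10 of 10 genes, Control tumor 3 was the lowest of all tumors in 10 of 10, treated tumor 3 was the highest of all in 10 of 10, and treated tumor 1 was the lowest treated tumor in 10 of 10. Control tumor 1 was above treated tumor 1 in all 10 genes, above treated tumor 2 in 2 (*Prf1* and *Fasl*) and above treated tumor 3 in 0. Over the 6 tumors, Pearson correlations of the log2 values between 2 genes ran from 0.872 (*Gzmg* with *Prf1*) to 0.989, with a median of 0.960 over 45 pairs. These are descriptions over 6 tumors that share the same libraries, and reads shared among *Gzmd* to *Gzmg* enter some of them.

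In the fit across all genes with all 6 tumors, 6 of 13963 genes (0.043%) passed an adjusted p of 0.05, 4 higher and 2 lower in treated tumors, and 0 of the 10 effector genes were among them. At an unadjusted p under 0.05, 6 of the 10 (*Gzma*, *Gzmb*, *Gzmc*, *Gzme*, *Gzmf* and *Gzmg*) were higher, against 8.77% of all genes. The limma-voom test also called 0 of the 10. The exact two-sided permutation test over tumors gave 0.2 for each of the 8 granzymes and 0.3 for *Prf1* and *Fasl*, where 3 tumors against 3 cannot give less than 0.1. None of the 10 genes had every treated tumor above every Control tumor, a pattern held by 10.9% of all genes. The median log2 fold change was 1.52 over the 10 genes and 0.020 over all genes tested, of which 51.9% had a higher mean in treated tumors.

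The call turned on Control tumor 1. Without it, 9 of the 10 genes passed an adjusted p of 0.05 in the higher direction, against 12% of all genes. The fold changes on the log2 scale were then 2.19 for *Gzma* (adjusted p = 0.0113, limma), 1.48 for *Gzmb* (0.00564), 1.83 for *Gzmc* (0.00508) and 2.05 for *Prf1* (0.00450). They were 2.07 for *Gzmd* (0.0399), 2.81 for *Gzme* (0.0264), 3.22 for *Gzmf* (0.0231), 2.32 for *Gzmk* (0.0482) and 1.06 for *Fasl* (0.0407), while *Gzmg*, at 3.17, had an adjusted p of 0.0559. The call of *Gzmk* is not independent of the minimum count, which this gene met only through the treated tumors. Every treated tumor was above Control tumors 2 and 3 in 10 of 10 genes, which was so for 28.4% of all genes. Leaving out the highest Control tumor of every gene can only widen the difference, and nothing in the labels sets this tumor apart. Without Control tumor 3, the lowest tumor, the median log2 fold change was 0.90, the single values ran from 0.32 (*Fasl*) to 1.43 (*Gzmg*), and 0 of the 10 passed. Without treated tumor 3, *Gzmd* was at 0.85 in place of 1.41. The differences stayed above 0 for all 10 genes whichever tumor was left out.

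**Figure D2:**
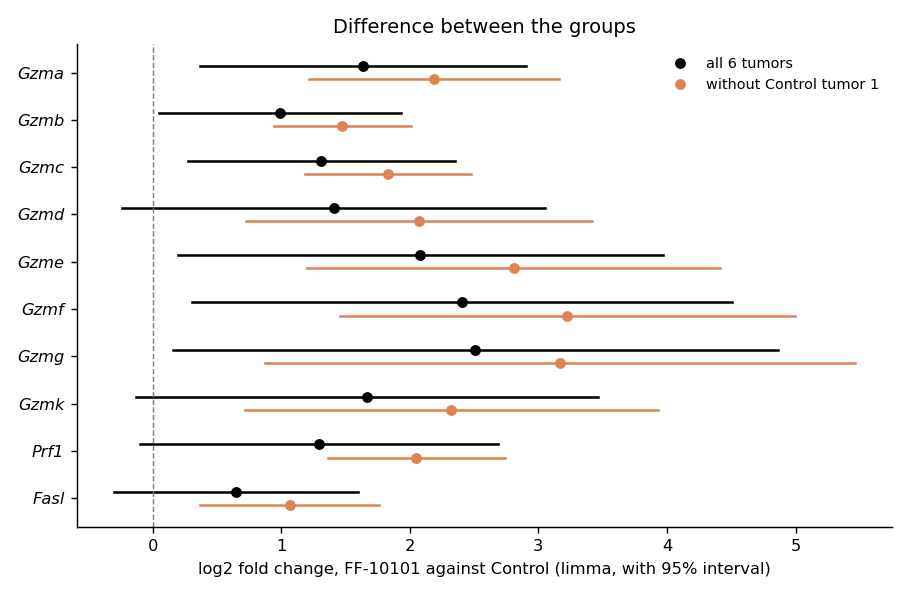
Log2 fold change of each effector gene, FF-10101 against Control, with its 95% interval from limma. Black is the fit on all 6 tumors, orange the fit without Control tumor 1. All 10 points lie to the right of 0 in both fits, and the intervals of *Gzmd*, *Gzmk*, *Prf1* and *Fasl* reach below 0 only with all 6 tumors.

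Per kilobase of transcript, the order of mean levels in Control tumors was *Gzma* (820 normalized counts per kilobase), *Gzmc* (758), *Gzmb* (461), *Gzmd* (240), *Prf1* (136), *Gzmf* (89.3), *Gzme* (79.8), *Gzmg* (39.0), *Fasl* (28.1) and *Gzmk* (5.13). In treated tumors it was *Gzma* (2144), *Gzmc* (1665), *Gzmb* (829), *Gzmd* (596), *Gzmf* (380), *Gzme* (271), *Prf1* (249), *Gzmg* (218), *Fasl* (40.9) and *Gzmk* (14.0). In Control tumors the ranges of neighbours in this order overlapped except for *Fasl* and *Gzmk*, and in treated tumors except for *Gzmc* and *Gzmb*, *Gzmg* and *Fasl*, and *Fasl* and *Gzmk*. The spread was wide, with an SD over 3 Control tumors of 581 for *Gzma* and 513 for *Gzmc*. *Gzmk* was the lowest gene in every tumor.

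Of the summed granzyme level per kilobase, *Gzma* made up 27.3% to 41.9% over the 6 tumors and *Gzmc* 25.5% to 35.6%. The share of *Gzmb* was 18.0%, 16.2% and 25.7% in Control tumors and 15.9%, 13.8% and 12.3% in treated tumors, so that every treated tumor was below every Control tumor in this share, while the mean level of *Gzmb* was higher in treated tumors. *Gzmd* to *Gzmg* together made up 19.5%, 17.8% and 11.3% in Control tumors and 14.9%, 18.7% and 31.6% in treated tumors, which overlap except for treated tumor 3. *Gzmk* made up at most 0.256%. Shares within a tumor move against each other, and these were not tested.

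**Figure D3:**
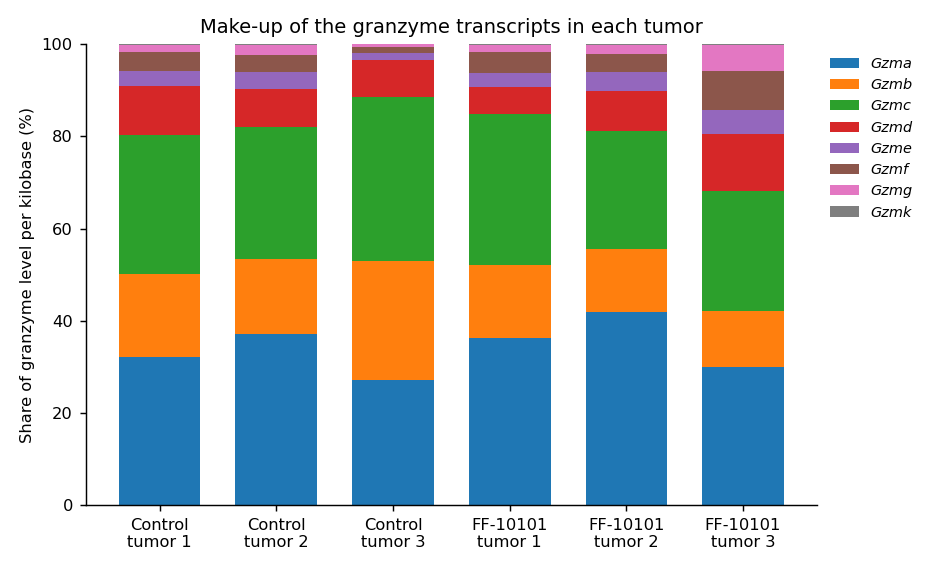
Share of each granzyme in the summed granzyme level per kilobase of transcript (%), 1 bar per tumor. *Gzma*, *Gzmb* and *Gzmc* hold most of each bar, and the *Gzmd* to *Gzmg* segments together take 31.6% in FF-10101 tumor 3 and 11.3% to 19.5% in the other 5 tumors.

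Whether the effector genes followed the amount of T and NK cell transcripts was asked by comparing them with 26 T and NK cell marker genes. The mean log2 level of these markers was 8.12, 6.87 and 6.76 in Control tumors and 7.18, 7.97 and 8.13 in treated tumors, so the markers too were highest among Control tumors in tumor 1 and lowest among treated tumors in tumor 1. The difference between group means was 0.40 for the 16 T cell markers and 0.69 for the 10 NK cell markers on the log2 scale. Without Control tumor 1 these differences were 0.86 and 1.08, and without Control tumor 3 they were 0.14 and 0.46. For single markers the log2 fold changes were 0.53 for *Cd3e*, a chain of the T cell receptor complex (adjusted p = 0.616, limma), 1.09 for *Cd8a* (0.386), 1.20 for *Cd8b1* (0.448) and 0.36 for *Cd4* (0.656). The NK cell receptors *Ncr1* (NKp46) and *Klrb1c* (NK1.1) had 0.68 (0.437) and 1.24 (0.338).

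After subtraction of the marker mean in each tumor, 10 of 10 effector genes had a higher group mean in treated tumors, with a median difference of 1.01 on the log2 scale. Control tumor 3 carried much of the size: without it the differences were 0.72 in place of 1.12 for *Gzma*, 0.89 in place of 1.57 for *Gzme*, 1.13 in place of 1.89 for *Gzmf*, 0.66 in place of 1.15 for *Gzmk*, 0.42 in place of 0.78 for *Prf1* and 0.052 in place of 0.13 for *Fasl*, and *Gzmg* was left with 1.16. In 7 of the 10 every treated tumor was above every Control tumor, against 3.52% of all genes treated in the same way. The marker mean was itself 0.51 higher in treated tumors. Its subtraction lowers the share over all genes, which was 10.9% before. The 10 genes also moved together over the tumors, so the 7 are not independent of each other. The 7 are *Gzma*, *Gzmb*, *Gzmc*, *Gzme*, *Gzmf*, *Gzmg* and *Gzmk*, of which *Gzmk* met the minimum count for testing only through the treated tumors. *Gzma* was at 2.36, 2.69 and 1.32 log2 units above the marker mean in Control tumors and at 3.27, 3.28 and 3.19 in treated tumors. The treated tumors differed from each other by less than 0.1 on this scale (SD 0.048, n = 3), and Control tumor 1 lay between the other Control tumors. *Gzmb* was at 2.04, 2.02 and 1.76 in Control tumors and at 2.62, 2.20 and 2.44 in treated tumors, a difference of 0.48. *Gzmc* was at 2.11, 2.16 and 1.55 in Control tumors and at 2.97, 2.40 and 2.83 in treated tumors, a difference of 0.80. For each of the 7 the exact permutation test gave 0.1, which any gene without overlap gets with 3 tumors against 3. The test therefore adds nothing to the count of genes.

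*Prf1* was at 1.34, 0.78 and −0.029 in Control tumors and at 1.73, 1.24 and 1.47 in treated tumors relative to the markers, with overlap at 1 tumor. *Fasl* differed by 0.13, with −1.63, −1.40 and −1.76 in Control tumors and −1.17, −1.73 and −1.48 in treated tumors, so the groups were mixed. *Gzmd* overlapped too, with a difference of 0.89, which was 0.53 without treated tumor 3 and also 0.53 without Control tumor 3. Relative to the T cell markers alone 9 of the 10 had every treated tumor above every Control tumor, against 4.53% of all genes. Relative to the NK cell markers alone 5 did (*Gzma*, *Gzmc*, *Gzme*, *Gzmf* and *Gzmk*), against 2.32%, and *Fasl* had a difference of −0.044. *Gzmk*, counted among the 9 and among the 5, met the minimum count for testing only through the treated tumors. The subtraction assumes that all markers follow lymphocyte number alike, which was not tested.

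**Figure D4:**
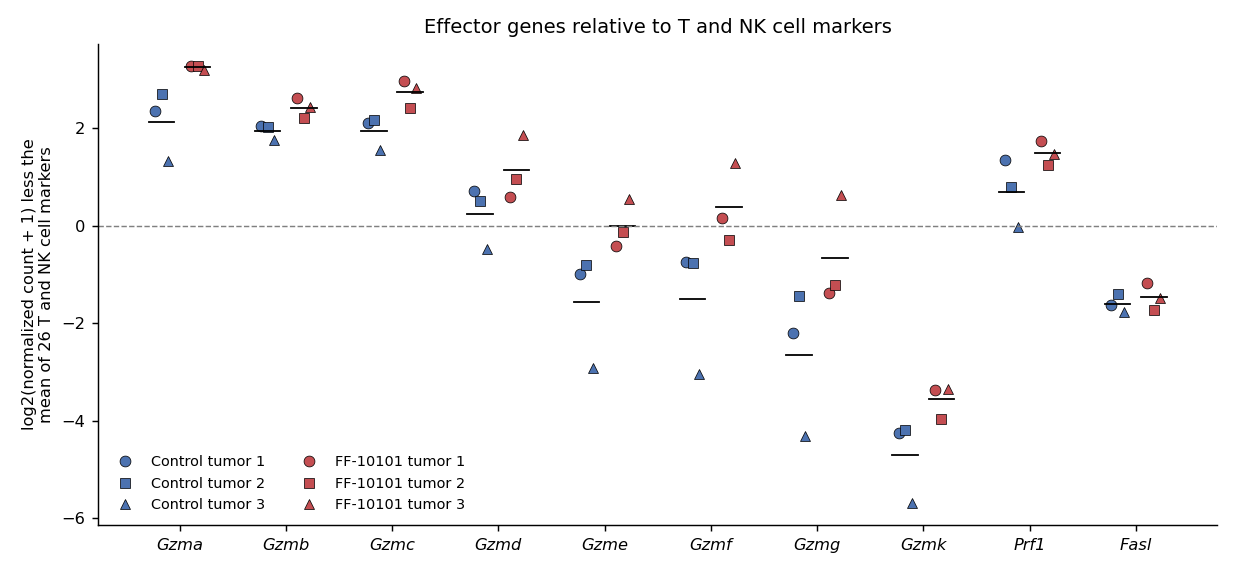
Log2(normalized count + 1) of each effector gene less the mean of 26 T and NK cell markers in the same tumor. Colors and symbols are Control (blue) and FF-10101 (red) tumors 1 to 3, and bars are group means (n = 3). The groups do not overlap for 7 genes and overlap for *Gzmd*, *Prf1* and *Fasl*.

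The pathway around the effector genes was then followed from the granule to the target cell. Among genes of granule biogenesis and release, 11 of 14 listed were tested, 9 had a higher and 2 a lower mean log2 level, and 0 passed with all 6 tumors. Higher and lower in this and the following lists refer to the mean of log2 values, and *Unc13d* and *Stxbp2*, counted here as higher, had lower mean normalized counts in treated tumors. *Srgn*, the proteoglycan core on which granzymes are stored, was at 0.81 on the log2 scale (adjusted p = 0.398, limma), and the granule membrane protein gene *Nkg7* 0.89 (0.466). *Ctsc*, the cathepsin that removes the activation dipeptide of granzymes and is also high in macrophages, had −0.29 (0.702). *Gzmm*, an NK cell granzyme, was under the minimum for testing, at 6.75, 9.78 and 8.87 normalized counts in Control tumors and 3.05, 9.77 and 19.6 in treated tumors. *Gzmn* had 0 reads in every tumor. The median log2 fold change of the list was 0.23, against 1.52 for the effector genes.

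On the target cell side and among inhibitors, 13 genes were tested, 8 were higher and 5 lower, and 0 passed. *Fas*, the receptor of Fas ligand, had 204, 101 and 106 normalized counts in Control tumors and 323, 306 and 308 in treated tumors. Every treated tumor was above every Control tumor, at 1.26 on the log2 scale (SE 0.28, adjusted p = 0.229, limma), beside 0.65 for its ligand. *Cflar*, which blocks caspase-8 at the receptor, was at 0.52 (0.259) with groups that did not overlap. *Fas* and *Cflar* were the 2 of 13 with every treated tumor above every Control tumor, a pattern held by 10.9% of all genes. *Gsdme*, a pore-forming substrate of granzyme B and caspase-3, was at −0.80 (0.229), with every treated tumor below every Control tumor, as in 9.37% of all genes. *Serpinb9*, the inhibitor that protects cells from granzyme B, had 700, 394 and 449 normalized counts in Control tumors and 633, 794 and 920 in treated tumors, a log2 fold change of 0.63 (0.282).

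Of 10 other death ligands, their receptor and effector cytokines, 7 were higher and 3 lower, with a median log2 fold change of 1.02. *Ccl5*, a T cell attracting chemokine made by effector lymphocytes, had 3177, 756 and 824 normalized counts in Control tumors and 3716, 5566 and 4748 in treated tumors. It was higher in every treated than in every Control tumor, at 1.88 on the log2 scale (adjusted p = 0.229, limma). *Ifng*, the cytokine that activates macrophages and antigen presentation, had 146, 25.0 and 11.1 normalized counts in Control tumors and 132, 115 and 188 in treated tumors. Like *Prf1*, it was higher in Control tumor 1 than in treated tumors 1 and 2 (log2 fold change 1.99, adjusted p = 0.290, limma). *Lta*, a TNF relative, did not overlap between the groups but was low, at 5.43 to 12.4 against 15.2 to 17.8 normalized counts. With a Control mean of 9.64, it met the minimum for testing only through the treated tumors. *Ccl5* and *Lta* were the 2 of 10 with every treated tumor above every Control tumor, beside 10.9% of all genes.

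Of 14 regulators of effector gene transcription, 14 had a higher mean log2 level in treated tumors, against 51.9% of all genes, and 0 passed. Their median difference was 0.36 with all tumors, 0.77 without Control tumor 1 and 0.044 without Control tumor 3. In 0 of the 14 was every treated tumor above every Control tumor, against 10.9% of all genes. The mean normalized counts of *Tbx21* and *Batf* were slightly lower in treated tumors. *Eomes*, a T-box factor that drives *Prf1* and *Gzmb*, had 190, 79.3 and 47.7 normalized counts in Control tumors and 176, 179 and 222 in treated tumors (1.08, adjusted p = 0.300, limma). *Tbx21*, which encodes T-bet, had 213, 44.6 and 35.5 in Control tumors and 96.2, 78.2 and 116 in treated tumors (0.45, 0.740), so Control tumor 1 was the highest of all tumors. Among cytokines and receptors that induce granzymes, 11 of 13 tested were higher, with a median of 0.57. *Il18rap*, a chain of the IL-18 receptor, was at 391, 206 and 172 normalized counts in Control tumors and 423, 572 and 613 in treated tumors, with no overlap (1.14, adjusted p = 0.229, limma). *Il15ra*, which presents IL-15 to killer cells, was at 0.57 (0.253), also without overlap. *Il18rap* and *Il15ra* were the 2 of 13 without overlap, beside 10.9% of all genes. *Il2rb*, the receptor chain shared by IL-2 and IL-15, was at 0.83 (0.433).

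Markers of other cells that can hold granzymes or that moved with the groups were read in the same fit. Of the T cell markers 14 of 16 had a higher mean log2 level (median 0.32), among them *Lat*, whose mean normalized count was lower in treated tumors, and of the NK cell markers 9 of 10 (median 0.78), with groups that did not overlap in 0 of either list. The summed T cell markers ran from 2658 to 6656 normalized counts in Control tumors and from 3479 to 6240 in treated tumors, and the summed NK cell markers from 1450 to 2843 and from 1725 to 3235. *Klra4*, the only NK cell marker with a lower mean log2 level, held 761 of the 1613 normalized counts of this sum in Control tumor 3. Mast cells can transcribe *Gzmb* and *Gzmd* after activation, and 8 of 8 mast cell markers were higher, 6 of them with every treated tumor above every Control tumor, as in 10.9% of all genes (median 1.68). Those named by size were *Hdc* (2.41), *Mcpt4* (1.97), *Cma1* (1.80), *Cpa3* (1.79) and *Fcer1a* (1.58), with adjusted p of 0.229 to 0.260 (limma). *Fcer1a*, with means of 8.84 in Control and 32.9 in treated tumors, met the minimum for testing only through the treated tumors. The summed level of the mast cell markers was 624, 331 and 353 normalized counts in Control tumors and 942, 920 and 2058 in treated tumors. Treated tumor 3 was thus highest for mast cell markers and for *Gzmd* to *Gzmg* alike. The orders differed otherwise, since Control tumor 1 was above treated tumor 1 for every effector gene and below it for the mast cell sum. *Ms4a2*, which encodes a chain of the IgE receptor, was under the minimum for testing and had 0 reads in Control tumor 1. The part of mast cells in the granzyme values was not tested.

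Plasmacytoid dendritic cells are known to transcribe granzyme B in humans. Of their markers 6 of 8 had a higher mean log2 level, with a median of 0.20, and *Tcf4*, at 0.42, was the single one of 8 without overlap, beside 10.9% of all genes. Their summed level, most of it *Tcf4*, ran from 1515 to 2045 normalized counts in Control tumors and from 2302 to 2487 in treated tumors. The other 7 markers summed to 249, 147 and 142 in Control tumors and 138, 210 and 267 in treated tumors, which overlap, and their part in the *Gzmb* values was not tested. Of the neutrophil markers 6 of 7 were higher (median 1.61), and 3 of 7 had groups that did not overlap, beside 10.9% of all genes. These were *Cxcr2* (2.30, adjusted p = 0.0813, limma), *S100a9* (1.94) and *S100a8* (1.61). The summed level of the neutrophil markers was 1927 to 2280 in Control and 2778 to 3227 in treated tumors. *Ly6g*, a defining neutrophil marker, had no reads in 5 of the 6 tumors. Of the macrophage markers 7 of 8 were lower with all tumors (median −0.45) and 4 of 8 without Control tumor 1 (median −0.12), where *Csf1r*, *Cd68* and *Fcgr1* turned to a higher mean log2 level. In 4 of 8 every treated tumor was below every Control tumor: *Adgre1*, which encodes F4/80, at −0.95 (adjusted p = 0.229, limma), *C1qc* at −0.84, *C1qa* at −0.70 and *C1qb* at −0.65, beside 9.37% of all genes. Summed macrophage markers were 62269 normalized counts in Control tumor 1 against 35129 and 35711 in Control tumors 2 and 3 and 22438 to 31322 in treated tumors. Control tumor 1 was therefore the highest Control tumor for effector genes, T and NK cell markers and macrophage markers alike. Without it *C1qb* was at −0.38 and *C1qc* at −0.55. Why this tumor differs was not tested.

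**Figure D5:**
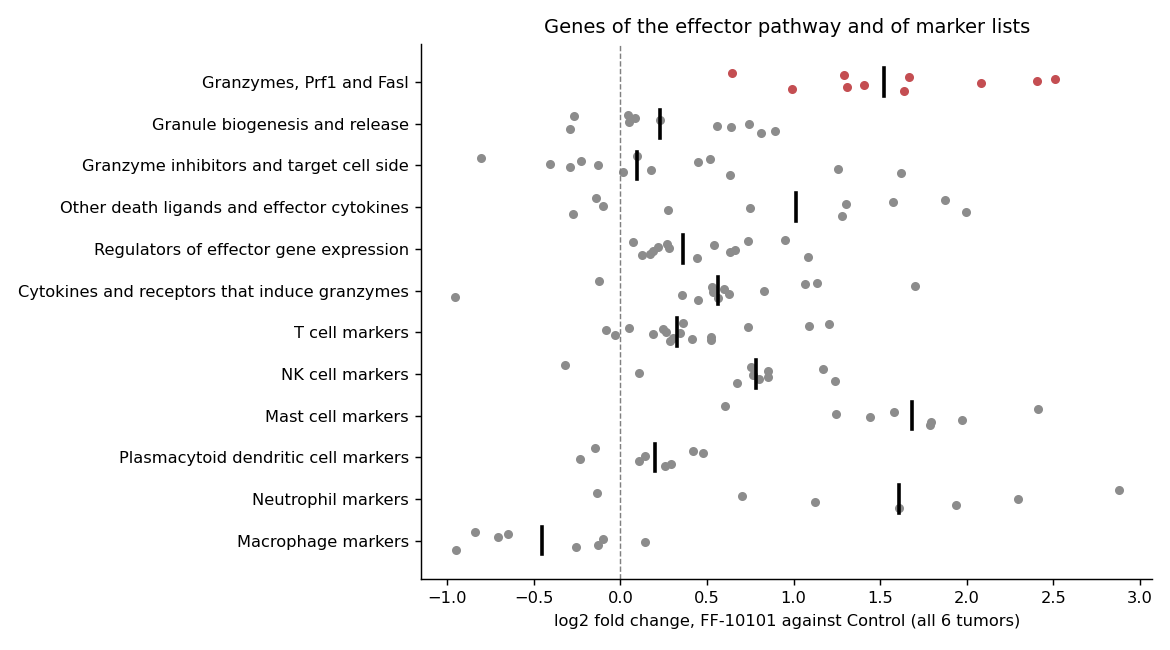
Log2 fold changes of the single genes of each list, FF-10101 against Control with all 6 tumors; red points are the 10 effector genes, grey points the other lists, and black bars medians. The effector genes have a median of 1.52, the mast cell and neutrophil markers 1.68 and 1.61, and the T cell and NK cell markers 0.32 and 0.78.

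Without Control tumor 1 the numbers called higher at an adjusted p of 0.05 were 4 of 11 for granule biogenesis and release, 5 of 13 for inhibitors and the target cell side, 5 of 10 for other ligands and cytokines, 5 of 14 for regulators and 6 of 13 for inducing cytokines and receptors. They were 4 of 16 for T cell, 6 of 10 for NK cell, 6 of 8 for mast cell, 0 of 8 for plasmacytoid dendritic cell, 5 of 7 for neutrophil and 0 of 8 for macrophage markers. The median log2 fold changes without this tumor were 0.54, −0.0047, 1.42, 0.77 and 0.98 for the 5 pathway lists in this order. They were 0.76 for T cell, 1.31 for NK cell, 1.67 for mast cell, 0.21 for plasmacytoid dendritic cell, 2.13 for neutrophil and −0.12 for macrophage markers, beside 2.13 for the effector genes. Without Control tumor 3 the medians were 0.061 for T cell and 0.48 for NK cell markers, beside 0.90 for the effector genes. Called lower without Control tumor 1 were 2 of 13 on the target cell side and 2 of 8 macrophage markers, against 9.88% of all genes called lower. In this fit *Cd8a* reached 1.82 on the log2 scale (adjusted p = 0.00753, limma), *Cd8b1* 2.13 (0.00902), *Ifng* 3.01 (0.00272), *Fas* 1.58 (0.00112) and *Serpinb9* 0.88 (0.0149). These values stand beside 9 of 10 for the effector genes and 12% of all genes called higher.

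The genes whose log2 values followed an effector gene most closely over the 6 tumors were, for *Gzmb*, *Vldlr*, *Natd1*, *Slfn5* and *Pramef8* (Pearson r = 0.999 each) and *Ptprb* (0.998). For *Prf1* they were *Cd248*, *Dtx3l*, *Slco3a1*, *Arrdc4* and *Sema3f*, with r from 0.997 to 0.998. For *Gzma* they were *Man2a1*, *Sec16a*, *Vdr*, *Adamtsl1* and *Rnf145*, with r from 0.994 to 0.999. The highest values among 13963 genes over 6 tumors are close to 1 whatever the genes are, and the points share their libraries.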

How the data were processed

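RNA of 6 MCA205 tumors was sequenced, 3 Control and 3 FF-10101, grouped by the labels. The authors trimmed reads with fastp 0.19.5, quantified them with Salmon 1.5.1 on GENCODE vM27 (GRCm39) and tested genes with DESeq2 1.22.1. The authors deposited log2 values, unpooled, of the form of a variance-stabilizing transformation, which the sources used here do not name. Its inverse gave whole reads for 100% of 325854 values (tolerance 0.01). Normalized counts are reads over the size factor, so the planned test ran on values recovered from the transformed ones. Depth was 9143806 to 13258258 reads. Genes averaging 10 or more normalized counts were tested with limma 3.58.1 in R 4.3.3 (lmFit, eBayes with trend, group only) on log2(normalized count + 1), with Benjamini-Hochberg adjustment over all genes tested. On this scale, fold changes of low genes are understated. On simulated data of 13866 genes the test recovered 153 of 200 genes changed 4-fold, with 7 wrong calls. Whether the simulated spread matches that among the real tumors was not tested. In the real data, leaving out Control tumor 1 took the calls from 6 to 3051. The recovery is therefore not a measure of the power for the effector genes.

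Of 54309 identifiers, 51484 were named through GENCODE vM21, and promoter sequences were matched by symbol for all 10 genes. Effector genes, pathway lists (granule, target cell side, ligands and cytokines, regulators, inducing cytokines) and marker lists (T, NK, mast, plasmacytoid dendritic cell, neutrophil, macrophage) were chosen with earlier results of these data known. Of the lists, genes were named if called or, failing that, as the up to 5 largest fold changes among those whose groups do not overlap, with a fixed set of 16 always named. *Vamp7* and *Mcpt5* were not matched. Levels per length used the longest transcript in GENCODE vM21, and identities its coding part. The genes *Vim*, *Sparc*, *Ptprc*, *Epcam* and *Cdh1* were chosen as a tissue check after the data were seen. Alternatives were other pseudocounts, minimum counts, scalings and limma settings, and each tumor left out.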

Additional observations from a re-analysis of the deposited data

How the results depend on the processing

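Over the alternatives run, 150 of 169 values of single effector genes kept their direction and side of the threshold and 19 passed it, all with a higher mean in treated tumors, and 0 changed sign. Sizes moved more: the difference of *Gzmk* was 1.66 as reported, 0.80 with a pseudocount of 10 and 0.55 on the deposited values, where *Gzmg* was at 1.54 in place of 2.51 and *Fasl* at 0.40 in place of 0.65. *Gzmk* gave no value at a minimum mean of 50. The number of effector genes called, 0 with all 6 tumors, was 10 with sample weights in limma and 0 to 9 when 1 tumor was left out (9 without Control tumor 1, 0 otherwise). The number of all genes called, 6, was 17 with no minimum count, 3 at a minimum mean of 50, 8365 with sample weights and 1 to 3051 when 1 tumor was left out (3051 when Control tumor 1 was omitted, 1 for Control tumor 2, 3 each for Control tumor 3 and FF-10101 tumor 2). The sample weights ran from 0.139 for Control tumor 1 to 8.08 for FF-10101 tumor 2. With the replicate number as a block, 1 gene and 0 effector genes were called. Same-numbered tumors did not deviate together (correlations −0.288, −0.040 and −0.277), and the labels give the numbers no meaning, so the tumors were not paired. The number of effector genes without overlap relative to T and NK cell markers, 7, was 9 with the T cell and 5 with the NK cell markers alone, alternatives chosen after seeing the data. Depth limits *Gzmk* and *Gzmg* in Control tumor 3, with 1 and 4 reads.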
